A study of Homo sapiens with 2 samples.

Results

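The genes described here are the secreted WNT ligands, their Frizzled (FZD) receptors and co-receptors, the DKK and SFRP families of secreted inhibitors, and a few genes of receptor turnover and of the nuclear end of the pathway. They were chosen by symbol, as every row of the deposited table named WNT or FZD with a number, together with 21 further symbols listed by name. This gave 49 of the 18930 genes in the table. Of these members 18 are WNT ligands, 10 are FZD receptors, 4 are co-receptors, 9 are secreted inhibitors, 4 act in receptor turnover and 4 belong to the nuclear arm or are its feedback target AXIN2. The study compared dacarbazine-resistant cells (DR) with wild-type cells (WT), with bulk RNA sequencing of 1 library for each. They are called the DR library and the WT library here after their labels, which name A375, a line of human melanoma cells, as the source of both. By the labels both were treated with DITC for 105 days, also the WT library, whereas the study describes DR cells as those that survived rising concentrations of dacarbazine (DTIC). With 1 library for each label no difference has a replicate check, and all intervals below cover read counting only.

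WNT proteins are lipid-modified secreted ligands that bind an FZD receptor together with LRP5 or LRP6 to stabilise β-catenin, the product of CTNNB1, which then works with LEF1 and TCF factors on target genes. Other WNT ligands act without β-catenin, often through ROR1 and ROR2. DKK1 and DKK4 block LRP5 and LRP6, whereas SFRP proteins and FRZB bind the ligands themselves. In multiple myeloma, a tumour of plasma cells in the bone marrow, secreted DKK1 and FRZB are known for holding back bone formation by osteoblasts.

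Melanocytic genes were mostly low in both libraries, whereas plasma cell genes were mostly abundant. Of 15 melanocytic genes 13 had counts, at a median of 3.12 TPM in the DR library and 2.63 TPM in the WT library over the 9 tested. SOX10 had 3 and 0 reads, MLANA 123 and 89, and PMEL 248 and 82, while the highest were RAB27A (4385 and 2212) and MITF (1922 and 1211), which other cells also express. All 14 plasma cell genes had counts, at a median of 225 and 230 TPM, against a median of 14.4 and 14.5 TPM for all genes tested. TPM here is reads divided by the gene length in the table and scaled so that all genes of a library have the same sum. JCHAIN had 111812 and 101680 reads, SDC1 20478 and 19708, and TNFRSF17 3227 and 2250. The lowest plasma cell gene was FCRL5, with 81 and 14 reads (0.605 and 0.169 TPM). Which count column belongs to which label rests on descriptions that differ by 1 punctuation mark, and every direction below rests on it. Both column names resemble the title of the DR sample, and neither carries the wt of the title of the WT sample. The libraries had 54878348 and 35294662 reads, so that 3 reads were worth 0.0540 CPM in the DR library and 0.0861 CPM in the WT library. CPM is reads per 1000000 after scaling by edgeR's TMM method.

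Sequence upstream of the start sites is given for ROR2 and WNT10A and for DKK1, which was included by name. DKK1 had the smallest log2 fold change of the members called higher below. The 250 bases before each RefSeq start site (GRCh38.p14, which is not the hg19 build of the submitters' processing notes) were searched on both strands for CTTTGA, a core of the sites that LEF1 and TCF factors bind. Windows were found for 33 of the 49 members, some with more than 1 start site. The letters CTTTGA or their reverse complement were present in 1 of 38 member windows (2.63%), against 11.2% of 34788 windows of all genes. The median GC content was 67% in the member windows and 58% in all. The window with the match was that of DKK1, and it held 1 match on each strand, starting at -149 and -95 from the start site and shown in capitals. The windows of WNT10A and ROR2, the members of the largest differences, held no match. These windows are chr10:52314031-52314280 on the plus strand for DKK1, chr2:218880602-218880851 on the plus strand for WNT10A and chr9:91950229-91950478 on the minus strand for ROR2, each written 5′ to 3′.
DKK1: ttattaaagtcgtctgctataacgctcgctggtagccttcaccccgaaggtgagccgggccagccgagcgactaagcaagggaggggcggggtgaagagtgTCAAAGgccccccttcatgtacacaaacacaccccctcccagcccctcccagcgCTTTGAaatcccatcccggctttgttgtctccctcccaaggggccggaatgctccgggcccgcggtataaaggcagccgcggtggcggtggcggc
WNT10A: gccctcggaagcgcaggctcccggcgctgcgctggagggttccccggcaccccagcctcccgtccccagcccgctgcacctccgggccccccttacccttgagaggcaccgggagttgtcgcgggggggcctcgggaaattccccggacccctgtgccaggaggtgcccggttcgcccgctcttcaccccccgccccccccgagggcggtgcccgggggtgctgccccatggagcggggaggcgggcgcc
ROR2: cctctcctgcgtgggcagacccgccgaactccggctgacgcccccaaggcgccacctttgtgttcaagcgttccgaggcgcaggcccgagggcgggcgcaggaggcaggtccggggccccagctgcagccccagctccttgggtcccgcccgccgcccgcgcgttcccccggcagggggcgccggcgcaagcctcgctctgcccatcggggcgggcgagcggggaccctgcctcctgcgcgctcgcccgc

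Most members were expressed at low levels, and those called went in both directions. Of the 49 members 2 (FZD9 and DKK2) had no count in the table and 6 had fewer than 10 reads over both libraries, which left 41 to compare. A level of 1 CPM was reached by 29 members in the DR library and by 28 in the WT library, 27 of them in both. The median level of the 41 members was 2.63 TPM in the DR library and 2.38 TPM in the WT library, far under the median of all genes tested. A gene was called where log2(CPM + 0.5) differed by at least 1. By this rule 7 members were higher in the DR library (ROR2, WNT10A, WNT5B, FZD10, SFRP5, WNT7A and DKK1), against 7.47% of all 16210 genes tested. A further 3 members (FZD8, LEF1 and FZD6) were lower, against 4.16% of all genes tested. The members called made up 17.1% and 7.32% of those compared. The edgeR counts that follow required this fold as well as a Benjamini-Hochberg adjusted p under 0.05. In the edgeR exact test with an assumed coefficient of variation of 0.2, 7 members were higher (6.5% of all genes) and 2 lower (3.47%), and with 0.4 these were 4 (1.88%) and 0 (0.888%). Those no longer called with 0.4 were WNT10A, WNT5B, DKK1, FZD6, FZD8 and LEF1. ROR2, FZD10, SFRP5 and WNT7A were still called. Of these FZD10 and WNT7A had 0 reads in the WT library, and SFRP5 had 2. The median log2 fold change of the 41 members was 0.06, and that of all genes tested was 0.01. Some members passed the filter only through the library in which they had reads, so that these shares are a description and no support for a change of the group.

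**Figure D1:**
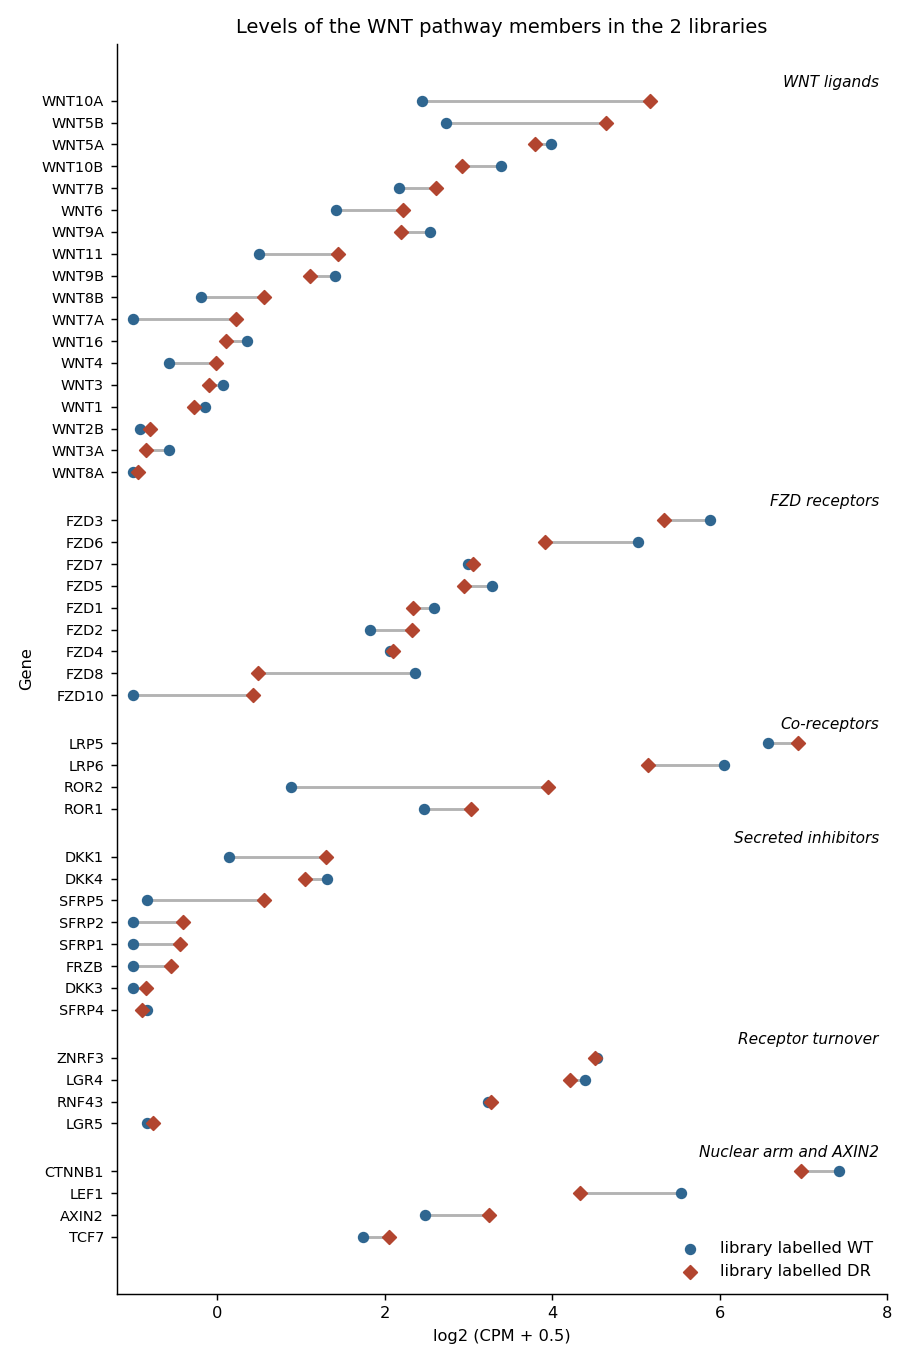
Level of each of the 47 members with counts, as log2(CPM + 0.5), in the DR library (diamonds) and the WT library (circles), grouped by role. The widest gaps are those of ROR2 and WNT10A, with the diamond on the right, and the highest levels are those of CTNNB1 and LRP5.

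Among the ligands WNT10A and WNT5B stood out. WNT10A, a ligand known for its part in tooth, hair and skin development, had 1976 reads (35.6 CPM) in the DR library and 173 reads (4.96 CPM) in the WT library. The CPM ratio was 7.17 (95% Clopper-Pearson interval 6.13 to 8.42) and the log2 fold change was 2.72. WNT5B, a ligand that mostly acts without β-catenin, had 1360 reads (24.5 CPM) and 214 reads (6.14 CPM). Its ratio was 3.99 (3.45 to 4.63) and its log2 fold change 1.91. Both genes passed the fold threshold for a call by a wide margin, whereas their closest relatives did not. With an assumed coefficient of variation of 0.4, WNT10A and WNT5B were no longer called. WNT10B had 7.11 CPM in the DR library and 9.98 CPM in the WT library, a ratio of 0.712 (0.615 to 0.825). WNT5A, the best-known ligand of the branch without β-catenin, had 13.3 and 15.3 CPM, a ratio of 0.871 (0.778 to 0.975). Within these pairs the order of the paralogs therefore differed between the libraries for WNT10. In TPM, WNT10A was 5.01 times WNT10B in the DR library and 0.498 times in the WT library, and WNT5B was 5.34 and 1.17 times WNT5A.

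WNT7A was called through a library with no reads. It had 37 reads in the DR library (0.666 CPM) and 0 in the WT library, so that it was at least 7.74-fold higher against a floor of 3 reads. The floor is not a confidence limit, and the 95% Clopper-Pearson interval of its ratio started lower, at 5.98. With a pseudocount of 5 CPM the log2 fold change of WNT7A was 0.18, which was no call. WNT11, which acts mainly on cell movement, had 2.21 CPM in the DR library and 0.918 CPM in the WT library, with a ratio of 2.41 (1.62 to 3.68) and a log2 fold change of 0.94, just under the threshold. WNT6 had 4.16 and 2.18 CPM, a ratio of 1.91 (1.47 to 2.51). WNT6 and WNT10A are neighbours that overlap on chromosome 2 in the RefSeq annotation, and both had estimated counts that were not whole, so that the split of reads between them is uncertain. WNT7B had 5.62 and 4.02 CPM, and its ratio was 1.40 (1.14 to 1.72). WNT9A and WNT9B had ratios of 0.762 and 0.770, and the interval of WNT9B (0.561 to 1.06) held 1.

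As a family the ligands summed to 90.9 TPM in the DR library and 42.8 TPM in the WT library, a ratio of 2.12. WNT10A and WNT5B made up 64.9% of the sum in the DR library and 26.0% in the WT library. Without these 2 genes the sums were 31.9 and 31.7 TPM, a ratio of 1.01. In the DR library the order of the ligands by TPM was WNT10A (34.0), WNT5B (25.0), WNT10B (6.78) and WNT6 (5.46). In the WT library it was WNT10B (9.63), WNT9A (6.55), WNT5B (6.34) and WNT5A (5.44). With no replicates, neighbours in either order cannot be told apart from the spread between samples. A further 8 ligands were below 1 CPM in both libraries and none of them was called, namely WNT1, WNT2B, WNT3, WNT3A, WNT4, WNT8A, WNT8B and WNT16.

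The secretion of the ligands depends on PORCN, which adds their lipid, and on WLS, which carries them to the cell surface. WLS had 1085 reads (19.5 CPM) in the DR library and 6 reads (0.172 CPM) in the WT library. Its ratio was 113 (52.0 to 310) and its log2 fold change of 4.90 exceeded that of every member. PORCN had 18.7 CPM in the DR library and 17.8 CPM in the WT library, a ratio of 1.05 (0.951 to 1.16). NOTUM, an enzyme that removes the lipid again, had 36 and 22 reads. Of these 3 genes of ligand release, WLS was thus the one called.

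**Figure D2:**
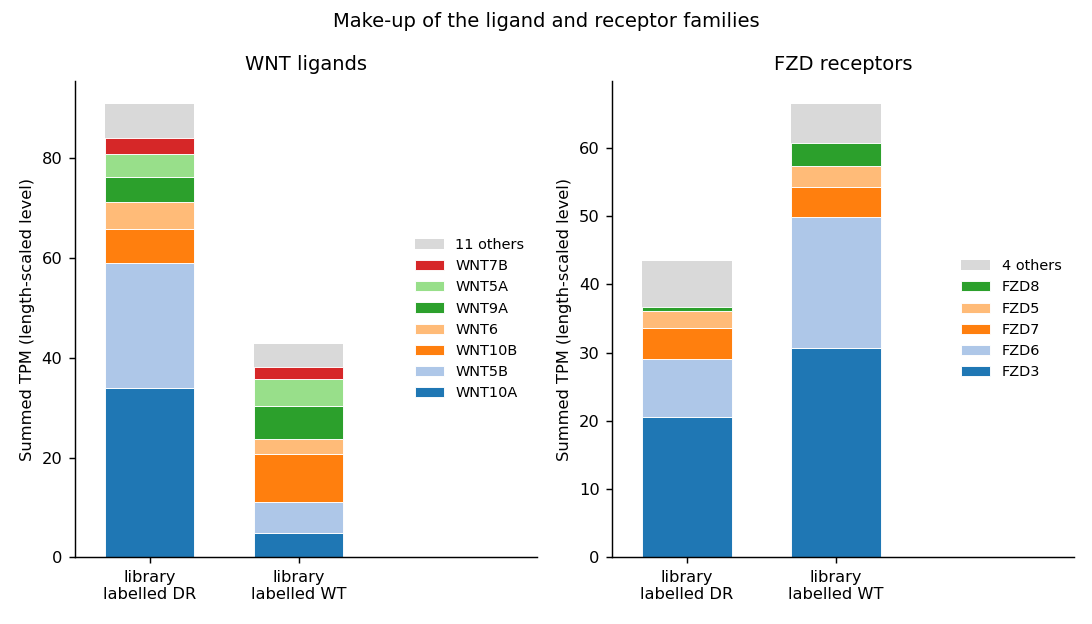
Summed length-scaled level (TPM) of the WNT ligands and of the FZD receptors in each library, with 1 bar for each library and 1 colour for each gene that reached 3 TPM in either. The ligand bar is 2.12 times as high in the DR library, mostly through WNT10A and WNT5B, while the FZD bar is lower there, at 43.4 against 66.4 TPM.

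The FZD receptors were together lower in the DR library, at 43.4 against 66.4 TPM. FZD3 and FZD6 made up most of this sum, 67.1% in the DR library and 75.0% in the WT library. FZD3, the most abundant receptor in both, had 39.9 CPM in the DR library and 58.7 CPM in the WT library, a ratio of 0.679 (0.639 to 0.722) that did not reach the threshold. FZD6 had 14.5 and 32.1 CPM, a ratio of 0.453 (0.413 to 0.496) and a log2 fold change of -1.12, which was -0.93 and no call with a pseudocount of 5 CPM. FZD8 had 0.900 CPM in the DR library, from 50 reads, and 4.65 CPM in the WT library, from 162 reads. Its ratio was 0.194 (0.138 to 0.267) and its log2 fold change -1.88, the lowest of all members compared. With a pseudocount of 5 CPM it was -0.71, which was no call. FZD10 went the other way, with 47 reads (0.846 CPM) in the DR library and 0 in the WT library, at least 9.83-fold higher against the floor of 3 reads, with an interval that started at 7.68. With a pseudocount of 5 CPM its log2 fold change was 0.23, no call. The estimated counts of FZD8 in the WT library were not whole, and 7 of the 9 FZD genes with counts had such values in 1 or both libraries.

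The remaining receptors were not called. FZD4 had 3.80 and 3.67 CPM and FZD7 had 7.79 and 7.46 CPM in the DR and WT libraries, with ratios of 1.03 (0.826 to 1.30) and 1.04 (0.894 to 1.22). FZD1 and FZD5 had ratios of 0.826 (0.682 to 1.001) and 0.777 (0.670 to 0.903). FZD2 had 4.52 and 3.04 CPM, a ratio of 1.49 (1.18 to 1.88), and was higher in the DR library without reaching the threshold.

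Among the co-receptors ROR2 showed the largest log2 fold change of all 41 members compared. This receptor tyrosine kinase binds WNT5A-type ligands and works largely without β-catenin. It had 833 reads (14.99 CPM) in the DR library and 47 reads (1.35 CPM) in the WT library. The ratio was 11.1 (8.29 to 15.3) and the log2 fold change was 3.07. ROR1, its paralog, had 7.65 and 5.02 CPM, a ratio of 1.52 (1.27 to 1.83) below the threshold. By TPM, ROR2 was 2.41 times ROR1 in the DR library and 0.330 times in the WT library, so that the order of the pair differed between the libraries.

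LRP5 and LRP6, the co-receptors of the β-catenin branch, moved apart. LRP5 had 122.1 CPM in the DR library and 95.2 CPM in the WT library, a ratio of 1.28 (1.23 to 1.34). LRP6 had 34.9 and 66.0 CPM, a ratio of 0.529 (0.497 to 0.562) and a log2 fold change of -0.91, just short of a call. LRP5 was the higher of both in either library, at 6.81 times the TPM of LRP6 in the DR library and 2.81 times in the WT library.

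**Figure D3:**
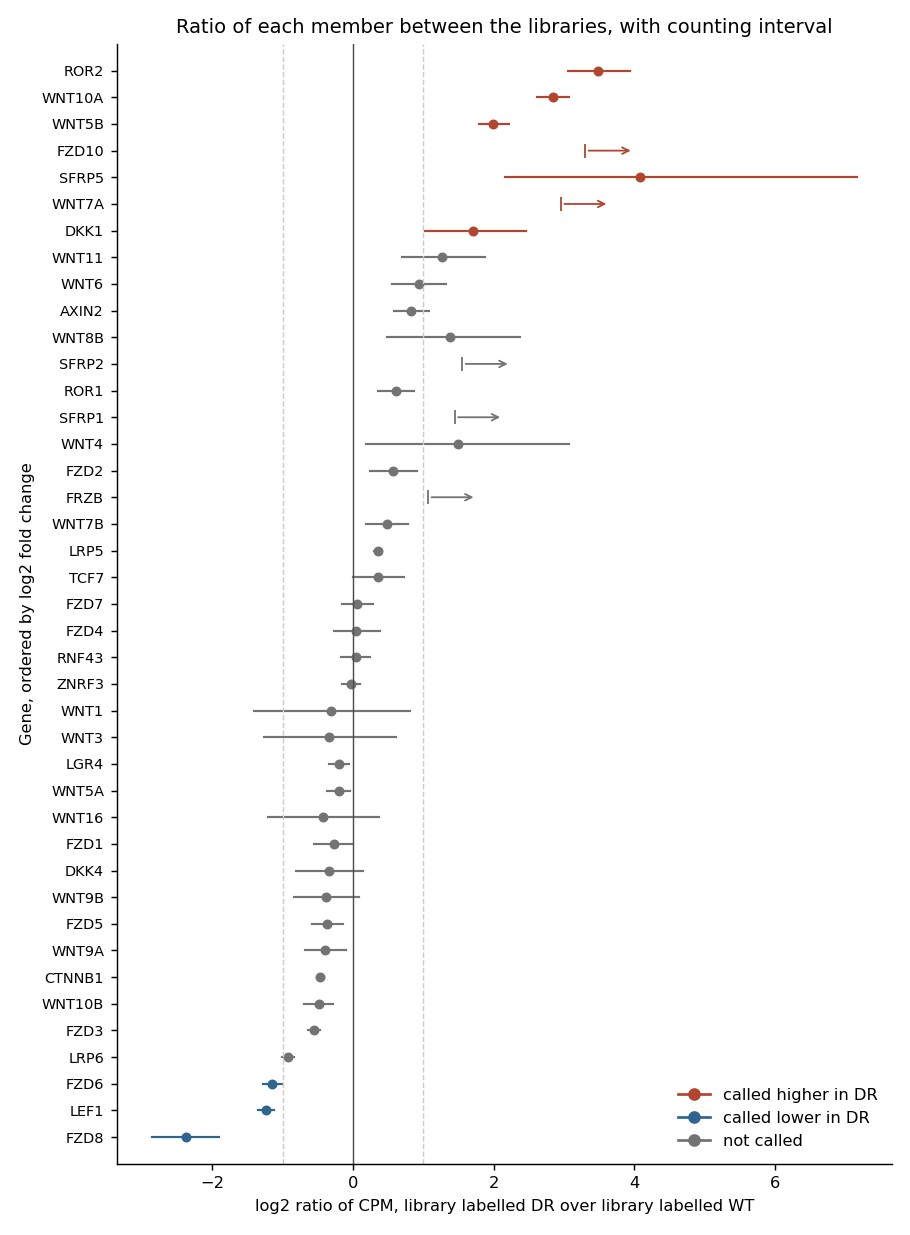
Log2 ratio of CPM of the DR library over the WT library for the 41 members compared, with 95% Clopper-Pearson intervals for read counting (lines), ordered by log2 fold change of CPM + 0.5. Arrows start at the ratio against a floor of 3 reads for the 5 members with 0 reads in the WT library, and dashed lines mark a log2 ratio of 1 in either direction. ROR2, WNT10A and WNT5B have narrow intervals far from 0, whereas SFRP5 rests on 2 reads in the WT library.

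The secreted inhibitors had very few reads. The 8 of them with counts summed to 292 reads in the DR library and 94 reads in the WT library, and only DKK1 and DKK4 exceeded 1 CPM in either library. DKK1 had 109 reads (1.96 CPM) in the DR library and 21 reads (0.602 CPM) in the WT library. Its ratio was 3.26 (2.03 to 5.47) and its log2 fold change 1.16. By length-scaled level DKK1 had 2.41 and 0.750 TPM, at percentiles 26.9 and 17.4 of the genes tested. DKK1 was thus a lowly expressed gene in both libraries, and with a pseudocount of 5 CPM its log2 fold change of 0.31 was no call. DKK4 had 1.57 and 1.98 CPM, a ratio of 0.791 (0.570 to 1.10), and its estimated counts were not whole. DKK3 had 3 reads and 0 reads, which gives no fold.

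FRZB, which binds WNT ligands outside the cell, had 10 reads in the DR library and 0 in the WT library. It was at least 2.09-fold higher there against the floor of 3 reads, with an interval that started at 1.41, and its log2 fold change of 0.44 was no call. SFRP5 had 54 reads (0.972 CPM) and 2 reads, a ratio of 16.9 (4.47 to 143) and a log2 fold change of 1.40, which was 0.24 and no call with a pseudocount of 5 CPM. SFRP1 and SFRP2 had 13 and 14 reads in the DR library and 0 reads in the WT library. Together FRZB and the SFRP genes had 93 reads in the DR library, 54 of them from SFRP5, and 4 in the WT library. These are reads before scaling, and the DR library was the deeper one. FRZB, SFRP1, SFRP2 and SFRP5 passed the filter only through their reads in the DR library. Their shared direction is therefore a description and no support for a change of the family. At these depths a level of FRZB, SFRP1 or SFRP2 in the WT library of up to 0.0861 CPM, the worth of 3 reads, could have been missed. The SFRP genes and FRZB are known from stromal cells and osteoblasts, so genes of these cells were examined as well. Of 8 stromal genes 5 had counts, and COL1A1 (572 and 109 reads) and PDGFRB (209 and 1 reads) were also called higher in the DR library. COL1A2 and COL3A1 had 1 read or none in either library, and DCN, LUM and POSTN had no count. The stromal list summed to 176 and 131 TPM, most of it from CXCL12. Of the 6 osteoblast genes SP7 had 0 and 2 reads. The 3 compared were RUNX2 (2833 and 1844 reads), SPP1 (4846 and 1681) and BGLAP (20 and 14), and none was called. The part of stromal cells and osteoblasts in the levels of the SFRP genes was not tested. In bulk RNA fewer cells of a type and less RNA in each cell cannot be told apart.

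Genes that set the number of receptors at the surface were much alike in both libraries. ZNRF3, a ubiquitin ligase that removes FZD receptors, had 22.2 and 22.7 CPM, a ratio of 0.978 (0.893 to 1.07). RNF43, which does the same, had 9.13 and 8.89 CPM, a ratio of 1.03 (0.889 to 1.19). LGR4, a receptor for R-spondins, had 18.0 and 20.6 CPM, a ratio of 0.873 (0.793 to 0.963). LGR5, the stem cell marker of the intestine, had 5 and 2 reads and was too low to compare. None of the 3 genes compared was called, against 11.6% of all genes tested in either direction.

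In the nuclear arm LEF1 was lower in the DR library. LEF1, a DNA-binding partner of β-catenin in lymphoid and many other cells, had 1088 reads (19.6 CPM) in the DR library and 1606 reads (46.1 CPM) in the WT library. Its ratio was 0.425 (0.393 to 0.459) and its log2 fold change -1.21. TCF7, a related factor, had 3.64 and 2.84 CPM, a ratio of 1.28 (1.002 to 1.65). LEF1 still made up most of the family's level in both libraries, at 76.7% and 87.9% of the summed TPM of LEF1, TCF7, TCF7L1 and TCF7L2. CTNNB1 had 124.6 and 171.7 CPM, a ratio of 0.726 (0.701 to 0.752), and was among the most abundant members. AXIN2, which is induced by β-catenin and then limits it, had 9.02 and 5.08 CPM. Its ratio was 1.78 (1.49 to 2.12) and its log2 fold change of 0.77 was no call. LEF1 and CTNNB1 were therefore lower and AXIN2 higher in the DR library, each with an interval clear of 1. These intervals cover read counting only, and LEF1 alone among these genes was called.

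Other genes of the pathway, from a list of 65 that are not members, were compared in the same way. Of these 61 had counts and 56 could be compared. Called higher in the DR library were 5 (8.93%), near the 7.47% of all genes tested, and 1 was lower (1.79%), against 4.16%. Apart from WLS, the genes called were DAAM2, CD44, PRICKLE2 and CELSR2 upward and CELSR3 downward. DAAM2, a formin that binds Dishevelled, had 6.16 and 0.143 CPM, with 5 reads in the WT library. CD44, an adhesion receptor that is among the targets of the pathway in some tissues, had 210 and 43.6 CPM. PRICKLE2 and CELSR2, of the planar cell polarity branch, had 9.85 and 2.78 CPM and 17.2 and 6.48 CPM. CELSR3, a cadherin of the same branch, had 27.4 CPM in the DR library and 112 CPM in the WT library, a ratio of 0.244 (0.229 to 0.258). Of the 12 planar polarity genes compared 3 were thus higher and 1 was lower, against 7.47% and 4.16% of all genes tested. DAAM2, like WLS, passed the filter only through its reads in the DR library. These counts are a description and no support for a change of the branch.

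None of the 10 genes of the β-catenin destruction complex passed the threshold in either direction, against 11.6% of all genes tested. Their median log2 fold change was 0.05. APC had 43.4 and 45.4 CPM, AXIN1 82.8 and 75.6 CPM, and GSK3B 55.8 and 64.1 CPM. None of the 8 Dishevelled and casein kinase 1 genes or of the 11 nuclear cofactors passed it either. At that share few calls would be due on lists of this length, so these counts are a description only. CSNK1E was the highest of the former by length, at 219 and 131 TPM. The highest 3 genes of the whole list by TPM were MYC (918 and 532), CSNK1E and NKD2 (218 and 175). NKD2, a feedback inhibitor that binds Dishevelled, had a ratio of 1.26 (1.22 to 1.30). NKD1 had 127 and 124 reads, a ratio of 0.643 (0.498 to 0.830), and SP5, a target of the pathway, had 7 and 1 reads. Of 8 target genes on the list 6 were compared, and CD44 was the one called. RSPO2, an R-spondin that binds LGR receptors, had 19.3 and 12.5 CPM, while RSPO1 had 0 and 1 reads.

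**Figure D4:**
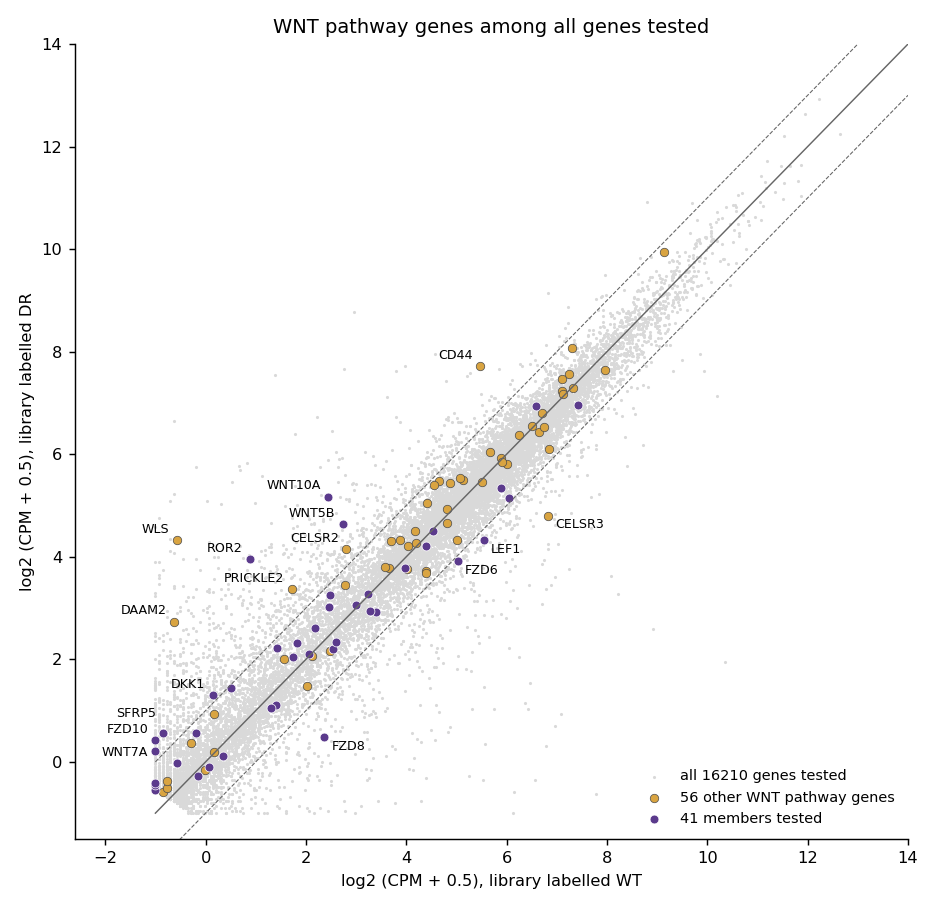
Level of each of the 16210 genes tested in the WT library (x axis) and the DR library (y axis), both as log2(CPM + 0.5), with the 41 members compared and the 56 other pathway genes in colour. Dashed lines mark a log2 fold change of 1, and genes called are named, with WLS, ROR2 and DAAM2 far above the diagonal and FZD8 and CELSR3 below it.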

How the data were processed

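The authors deposited 1 table with estimated counts of reads for each gene and library, the gene length, and their own log2 ratio, p-value, q-value and annotation, of which the comparison columns were not used. The submitters' processing notes list Bowtie 0.12.2 and hg19, with no role given, and the counting tool and annotation are not given in the sources used here. Estimated counts were rounded to whole numbers. Of 18930 genes, 663 had no count and 2057 had fewer than 10 reads over both libraries, which left 16210.

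Library sizes were scaled by TMM in edgeR 4.0.16 (R 4.3.3), with factors of 1.01 and 0.988. Log2 fold changes were taken of CPM plus a pseudocount of 0.5, and 1 in either direction was the least for a call. With 1 library per group no test with an estimated spread can be fitted, so no p-value of a gene is given. Counts by the edgeR exact test, with an assumed spread, and by the binomial test used an adjusted p under 0.05. The fold for a call was required in them as well. Ratios of CPM, without the pseudocount, have 95% Clopper-Pearson intervals from SciPy 1.17.1. Reads without molecular identifiers are not independent molecules. The call rule and the intervals were tested on simulated reads with counting error only. Alternatives were DESeq2 1.42.0 size factors, library totals, other filters, pseudocounts and levels, and tests on the reads of both libraries.

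The members, lists and rules were chosen with earlier results of these data known. Named were members at 1 CPM in either library or called, with DKK1 to DKK4 and FRZB, the called pathway genes up to 15, the 3 pathway genes of highest level, and defining markers. All others, such as SFRP1, SFRP2, the low ligands, LGR5, APC and RSPO2, were named after their values were seen. Symbols and Gene IDs of 49 members matched RefSeq.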

Additional observations from a re-analysis of the deposited data

How the results depend on the processing

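No paired analysis was possible because each label has 1 library, nor could a replicate be left out, and depth limits the members with few reads. With a pseudocount of 0.1 CPM 13 members were called higher in the DR library in place of 7, as low genes then count for more. The share of all genes called was not computed with this pseudocount or with 5 CPM, so the counts under both have no baseline. With 5 CPM 3 were higher (ROR2, WNT10A and WNT5B) and 1 was lower (LEF1) in place of 3, and 3 other pathway genes were higher in place of 5. With an assumed coefficient of variation of 0.4 in edgeR's exact test (Benjamini-Hochberg adjusted p under 0.05), 4 members were higher and 0 lower, 2 other pathway genes were higher and 0 lower. The fold for a call was required here as well, and the shares of all genes called are given with the main counts. The cause of the lower numbers was the larger spread assumed, under which WNT10A, WNT5B, DKK1, FZD6, FZD8 and LEF1 were no longer called. At 0.2 the call of FZD6 was lost. DKK1 had a log2 fold change of 0.31 with 5 CPM. The numbers of members called under library totals, a minimum of 50 reads or none, size factors from DESeq2, the binomial test and, added after seeing the data, without fractional counts were 5 to 7 higher and 2 to 3 lower. A minimum of 50 reads left 33 members, no minimum left 47 and leaving out fractional counts left 20, against 41 otherwise. Among these settings the share of all genes called was computed for the binomial test only. The median log2 fold change of the members lay between 0.04 and 0.09 in the 6 alternatives.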

Other observations

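Genes outside the WNT pathway that bear on the loss of bone in myeloma were compared as well. Of 10 such genes 8 were compared, and 4 were higher in the DR library and 0 were lower, by a log2 fold change of at least 1, against 7.47% and 4.16% of all 16210 genes tested. TNFSF11, which encodes the osteoclast factor RANKL, had 127 reads (2.29 CPM) in the DR library and 7 reads (0.201 CPM) in the WT library, a ratio of 11.4 (95% Clopper-Pearson interval 5.37 to 28.9). CCL3, a chemokine that draws osteoclast precursors, had 246 and 23.2 CPM, a ratio of 10.6 (9.88 to 11.4). CCL4 had 97 and 4 reads. Both chemokines have estimated counts that are not whole and close copies in the genome, so that their values are uncertain. HGF, hepatocyte growth factor, had 10.8 and 2.09 CPM, a ratio of 5.17 (4.05 to 6.68). SPP1, osteopontin, had 87.2 and 48.2 CPM and was not called. TNFRSF11B, the decoy receptor of RANKL, had 3 and 1 reads. All 8 had log2 fold changes above 0, with a median of 1.36, against 0.01 for all genes tested. TNFSF11, CCL4, IL7 (22 and 4 reads) and PTHLH (13 and 3 reads) passed the filter only through their reads in the DR library. The calls, the directions and the median are therefore a description and no support for a change of the group. The list was written with earlier results of these data known, and the libraries are labelled as melanoma cells.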
